A study of Mus musculus with 24 samples.

Results

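Nfil3 and the proline and acidic amino acid rich (PAR) bZIP factors Dbp, Tef and Hlf are transcription factors that share a DNA site, the D-box. The 4 genes were taken by symbol from the 47643 genes of the deposited count table, and each matched 1 Ensembl gene ID: Nfil3 (ENSMUSG00000056749), Dbp (ENSMUSG00000059824), Tef (ENSMUSG00000022389) and Hlf (ENSMUSG00000003949). Their expression was followed in plantaris, a fast muscle of the mouse hindlimb, from wild-type C57BL/6 animals. The control group breathed normal air (11 samples), and the other group was exposed to tobacco smoke for 16 weeks (13 samples). The family was picked with the smoke against air difference of Nfil3 and Dbp in view, so that difference is given for all 4 genes as a description, with its fitted size and interval and no p-value. Age, sex and the time of day at which muscles were taken are not given in the sources used here, nor is it stated that each sample came from a separate animal, so p-values measure the spread between these samples.

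The circadian clock runs on a loop in which BMAL1 (gene Arntl) and CLOCK activate genes through E-boxes, PER and CRY proteins repress that activation, and the nuclear receptors REV-ERB and ROR compete at a further site in Arntl and other genes. Dbp, Tef and Hlf are outputs of the E-box branch and activate genes through the D-box. Nfil3, also called E4BP4, is placed under the REV-ERB and ROR branch and represses genes through the same D-box, so that the ratio of PAR bZIP factors to NFIL3 sets the activity of that site. In several tissues Dbp and Nfil3 therefore peak at opposite phases of the day, and NFIL3 also acts in the development of innate lymphocytes.

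The start-site windows of these genes were read from RefSeq (GRCm38.p6), which held all 4 members, and searched on both strands over the 250 bases before the start. The D-box was searched as TTATGTAA, TTATGCAA, TTACGTAA, TTACGCAA, TTACATAA and TTACACAA, the E-box as CACGTG and the REV-ERB/ROR element as TAGGTCA. A position read as a match on both strands was counted once. Of 32851 windows in the table, 2.38% held a D-box, 6.02% an E-box and 2.23% the REV-ERB/ROR element. None of these motifs lay in the windows of Dbp and Hlf. Both RefSeq windows of Tef held an E-box, and no member's window held a D-box. The window of Nfil3 held the REV-ERB/ROR element on the strand opposite to the gene, so it reads TGACCTA below. Of 8 clock genes described as carrying D-boxes, 7 had a window and 2, Per1 and Per3, had a match in it. Of the stretches that carry these matches 4 are shown, with 1 of the Tef windows left out, 5′ to 3′ on the strand of the gene, with the matched bases in capitals:
Nfil3: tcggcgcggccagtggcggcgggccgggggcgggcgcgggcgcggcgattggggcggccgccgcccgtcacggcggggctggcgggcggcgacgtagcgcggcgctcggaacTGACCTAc
Tef: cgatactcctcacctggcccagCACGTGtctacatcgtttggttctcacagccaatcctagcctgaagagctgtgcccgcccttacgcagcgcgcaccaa
Per1: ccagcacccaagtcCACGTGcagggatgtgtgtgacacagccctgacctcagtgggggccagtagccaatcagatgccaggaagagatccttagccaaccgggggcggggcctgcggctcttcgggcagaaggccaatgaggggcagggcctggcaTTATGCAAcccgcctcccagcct
Per3: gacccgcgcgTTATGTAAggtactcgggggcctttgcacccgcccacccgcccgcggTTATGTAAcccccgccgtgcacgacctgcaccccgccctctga

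The Nfil3 stretch is chr13:52981044-52981163 (minus strand), and its match lies 12 to 6 bases before the RefSeq start, inside the first exon that GENCODE M21 annotates. The Tef stretch is chr15:81811254-81811353 (plus strand), before the second of the RefSeq starts, with its E-box 138 to 133 bases upstream. The Per1 stretch is chr11:69098769-69098947 (plus strand), with an E-box 166 to 161 bases and a D-box 24 to 17 bases before the first of its RefSeq starts; its second window held none of the motifs. The Per3 stretch is chr4:151044781-151044880 (minus strand) and holds the same D-box at 205 to 198 and at 158 to 151 bases before the start. A match is a stretch of letters, and factor binding was not measured in these samples. A window without a match says nothing of sites elsewhere, and the described E-boxes of Dbp lie largely within the gene.

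Libraries held 2515697 to 4528845 reads, all from 1 lane, and a floor of 3 reads corresponded to 0.662 to 1.19 CPM (counts scaled to library size) per sample. The sample sheet numbers in the headers put all smoke samples before all air samples, so sheet position and exposure cannot be told apart. Muscle fibre markers were abundant in every sample, their 7 genes summing to 121742 to 182380 CPM in air and 127028 to 156517 CPM in smoke. Of these 7 genes 1 was called, the myoglobin gene Mb, which was lower in smoke (log2 fold change −0.36, adjusted p = 0.00107 by edgeR; 1.19% of all tested genes were called lower). Counts come from the 3′ end of each transcript and are about proportional to transcripts whatever their length, so the levels of genes are compared below as CPM, not divided by length. In bulk muscle, fewer cells of a type and less RNA per cell cannot be told apart.

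Nfil3 was lower and Dbp higher under smoke, each by more than 2-fold, while Tef and Hlf differed between groups by less than the spread between samples. Nfil3 (GRCm38 chromosome 13, 52967209 to 52981073, minus strand) had 16.0 CPM in its lowest air sample, a median of 26.4 CPM and 36.3 CPM in its highest. Under smoke the lowest, median and highest were 6.60, 9.26 and 14.4 CPM. The groups did not overlap: all 13 smoke samples were below the lowest air sample. Its mean went from 25.0 ± 7.46 CPM (SD, n = 11) to 10.1 ± 2.51 CPM (SD, n = 13), a log2 fold change of −1.31 (SE 0.15, 95% interval −1.60 to −1.01). Nfil3 was thus 2.48-fold lower, on 51 to 141 reads per air sample and 20 to 49 reads per smoke sample.

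Dbp, the strongest oscillator of the PAR bZIP family in many tissues (chromosome 7, 45705088 to 45710203, plus strand), had 14.3 CPM in its lowest air sample, a median of 22.8 CPM and 39.6 CPM in its highest. Under smoke the lowest, median and highest were 22.6, 57.1 and 74.0 CPM. Of the 13 smoke samples 11 were above every air sample, and the other 2, replicates 11 and 5, lay within the air range at 22.6 and 28.4 CPM. The mean went from 23.9 ± 7.69 CPM (SD, n = 11) to 54.0 ± 16.3 CPM (SD, n = 13), a log2 fold change of 1.18 (SE 0.16, 95% interval 0.845 to 1.505), or 2.26-fold higher.

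The 3′ end of Dbp lies over the 3′ end of Sphk2, a sphingosine kinase gene on the opposite strand, from 45709467 to 45710203, and strand use in counting is not given in the sources used here. Sphk2 itself had 28.6 ± 4.25 CPM (SD, n = 11) in air and 24.9 ± 3.10 CPM (SD, n = 13) under smoke, with log2 fold change −0.20 (SE 0.087, adjusted p = 0.253 by edgeR). How reads in the overlap were assigned, and their part in the Dbp values, was not tested. Nfil3 and Hlf have no annotated overlap, and the antisense gene Gm17597 at the 5′ end of Tef had at most 1 read in a sample.

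Tef (chromosome 15, 81802421 to 81826863, plus strand), the PAR bZIP factor first described in the pituitary thyrotroph, had 183 CPM in its lowest air sample, a median of 207 CPM and 259.9 CPM in its highest. Under smoke the lowest, median and highest were 169, 220.2 and 287 CPM, and the groups overlapped over most of their range. The log2 fold change was 0.05 (SE 0.075, 95% interval −0.10 to 0.20), which bounds the ratio of smoke to air between 0.932 and 1.15. Tef was also the member with the most reads, 495 to 1054 per sample, and so the most precisely measured.

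Hlf (chromosome 11, 90336536 to 90390895, minus strand), known also from the fusion gene of a childhood leukaemia, had 10.4 CPM in its lowest air sample, a median of 13.003 CPM and 20.3 CPM in its highest. Under smoke the lowest, median and highest were 8.42, 12.97 and 18.8 CPM, so the medians were nearly equal. The log2 fold change was −0.02 (SE 0.12, 95% interval −0.28 to 0.23), which bounds the ratio between 0.825 and 1.17. Its sign was not stable, running from −0.08 to 0.06 when single samples were left out.

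**Figure D1:**
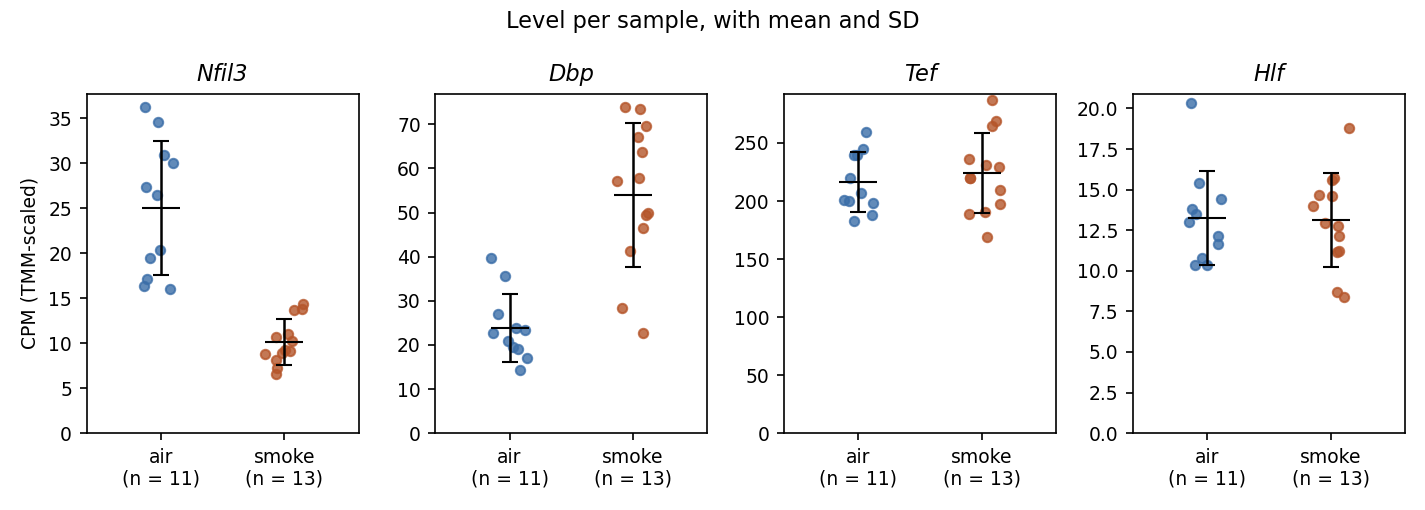
CPM on TMM-scaled libraries (vertical axis) of each of the 4 genes in air and smoke samples; points are samples, the long tick and bars are the mean and SD. All 13 smoke samples of Nfil3 lie below the lowest air sample, 11 of 13 smoke samples of Dbp lie above the highest air sample, and Tef and Hlf overlap.

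Of the 4 genes, 2 were called in the test over all genes (edgeR quasi-likelihood, Benjamini-Hochberg adjusted p under 0.05), where 195 of 10159 tested genes, or 1.92%, were called. The groups' CPM ranges did not overlap in 3 of the 10159 genes (0.0295%; 0.00984% higher and 0.0197% lower under smoke), of which Nfil3 is 1. The family was chosen by this contrast, which fixes both counts for Nfil3 and Dbp, so nothing is read from them.

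The order of the 4 genes by level differed between the groups. In air Tef was highest, Nfil3 and Dbp followed at medians of 26.4 and 22.8 CPM with overlapping ranges, and Hlf was lowest at 13.003 CPM, its highest sample overlapping both of them. In smoke Tef was again highest and Dbp, at a median of 57.1 CPM, stood above Hlf and Nfil3, whose ranges overlapped. Tef was above each of the other 3 in every one of the 24 samples, its lowest value being 169 CPM and the highest of the others 74.0 CPM for Dbp. The ratio of Dbp to Nfil3 CPM within a sample, both genes being chosen for their difference, was 0.461 at the lowest, 1.02 at the median and 1.76 at the highest in air. In smoke it was 1.57, 6.37 and 8.60. A single smoke sample, replicate 11, fell below the highest air ratio.

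The members varied unequally between samples of 1 group. The SD of log2 CPM within groups was 0.48 for Dbp, higher than in 87.8% of tested genes, and 0.38 for Nfil3, at the 70.9th percentile. Hlf was near the median of all tested genes (0.30 against 0.29), and Tef was steadier than most, at 0.20 and the 23.6th percentile. These ranks are over genes of all levels and the SD includes counting error. By mean level Tef stood at the 95.6th percentile of tested genes. For Dbp and Tef, counting error made up 5.03% to 15.2% of the variance in each group, so nearly all of their spread lay between samples. For Hlf it made up 62.3% in air and 49.2% in smoke. For Nfil3 it rose from 14.1% in air to 58.1% in smoke, where the median sample held 35 reads, so the spread of Nfil3 among smoke samples was largely not resolved at this depth.

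Single samples stood out across the family. Air replicate 5 was the highest air sample for all 4 genes, with 36.3 CPM of Nfil3, 39.6 CPM of Dbp, 259.9 CPM of Tef and 20.3 CPM of Hlf. In that sample the clock repressor Per1 reached 50.4 CPM against an air median of 9.04 CPM. Smoke replicates 11 and 5 had the lowest Dbp of their group and also its highest Nfil3, at 14.4 and 13.8 CPM. Without air replicate 5 the log2 fold change was 1.28 for Dbp and −1.24 for Nfil3. With each of the 24 samples left out in turn it stayed between 1.11 and 1.28 for Dbp and between −1.36 and −1.24 for Nfil3.

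**Figure D2:**
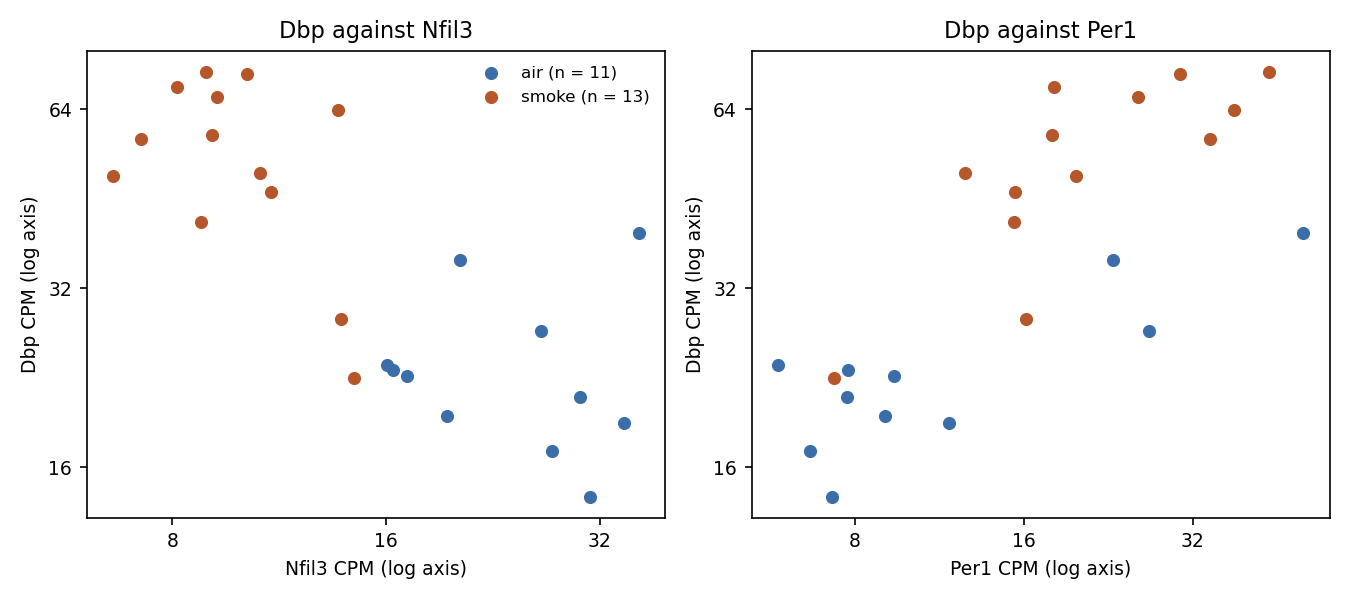
Dbp CPM (vertical, log axis) against Nfil3 CPM (left) and Per1 CPM (right, log axes) in each sample of 11 air and 13 smoke libraries. In the left panel the groups do not overlap along Nfil3. There 2 smoke samples lie within the air range of Dbp and have the highest Nfil3 of their group. In the right panel r of Dbp with Per1 (log2 CPM) is 0.81 in air and 0.78 in smoke, and neither passed adjustment.

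Variation inside a group was not used to choose the family and could be tested. Pearson's r between members was computed on log2 CPM over the 6 pairs in each group, with permutation tests (100000 resamples, two-sided) adjusted by Benjamini-Hochberg over the 12 relations. None passed by r or by Spearman's rho, and 1 of 12 had an unadjusted p under 0.05. That pair was Dbp with Tef in smoke (n = 13), with r 0.58 (permutation p = 0.0400, adjusted p = 0.385) and rho 0.42 (permutation p = 0.159, adjusted p = 0.744). It rested on the 2 samples with the lowest Dbp, without which r was 0.07. Dbp and Nfil3 were opposed in smoke at r −0.53 (permutation p = 0.0642, adjusted p = 0.385; rho −0.35, permutation p = 0.240, adjusted p = 0.744), which also rested on 2 samples, r being 0.11 without them. In air (n = 11) the same pair had r −0.07 (permutation p = 0.840, adjusted p = 0.980) and rho −0.20 (permutation p = 0.557, adjusted p = 0.868), and r −0.05 without 2 samples.

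The 13 tested genes of the clock loop were then compared with each member in each group, 104 relations in all. None passed adjustment by r or by rho, and 18 had an unadjusted permutation p under 0.05. The strongest was Dbp with Per1, a PER repressor with the E-box and D-box shown above in 1 of its 2 RefSeq windows. In smoke (n = 13) r was 0.78 (permutation p = 0.00103, adjusted p = 0.107) and rho 0.77 (permutation p = 0.00323, adjusted p = 0.168), and r was 0.70 once the 2 samples with the most extreme Dbp were removed. In air (n = 11) r was 0.81 (permutation p = 0.00287, adjusted p = 0.149) and rho 0.59 (permutation p = 0.0599, adjusted p = 0.416), and r was 0.69 without 2 samples. Both groups gave a positive r of like size, and neither passed the correction.

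Dbp also had negative r with Arntl in both groups, −0.46 in air (permutation p = 0.154, adjusted p = 0.393; rho −0.45, permutation p = 0.171) and −0.47 in smoke (permutation p = 0.108, adjusted p = 0.372; rho −0.45, permutation p = 0.130). In smoke r was −0.08 without 2 samples. Neither relation with Arntl was among the 18 above. Dbp had a more negative r in air with Clock, −0.74 (permutation p = 0.00876, adjusted p = 0.228, rho −0.69), and −0.53 without 2 samples. With Nr1d1 in air it was −0.66 (permutation p = 0.0221, adjusted p = 0.238, rho −0.53), and −0.63 without 2 samples. In smoke these were −0.17 (permutation p = 0.583) and −0.15 (permutation p = 0.635). Nfil3 had its highest r in air with Per2, at 0.73 (n = 11, permutation p = 0.0133, adjusted p = 0.238; rho 0.75, permutation p = 0.0102, adjusted p = 0.264), and 0.62 without 2 samples. In smoke the same r was −0.16 (n = 13, permutation p = 0.592, adjusted p = 0.799; rho −0.16, permutation p = 0.604; r 0.22 without 2 samples), and the difference between groups was not tested. Nr1d2, which encodes REV-ERBβ, had r 0.70 with Nfil3 in air (permutation p = 0.0202, adjusted p = 0.238; rho 0.69, permutation p = 0.0228) and −0.38 in smoke (permutation p = 0.229, adjusted p = 0.458; rho −0.05, permutation p = 0.863). Without 2 samples these were 0.59 in air and 0.54 in smoke, so the negative r in smoke rested on those samples. The other REV-ERB gene, Nr1d1, went the opposite way with Nfil3 in air, at r −0.57 (permutation p = 0.0233, adjusted p = 0.238). Its rho there was −0.57 (permutation p = 0.0723), and r was −0.57 without 2 samples. For Nr1d1 with Nfil3 in smoke r was 0.16 (permutation p = 0.591, adjusted p = 0.799), and −0.03 without 2 samples.

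**Figure D3:**
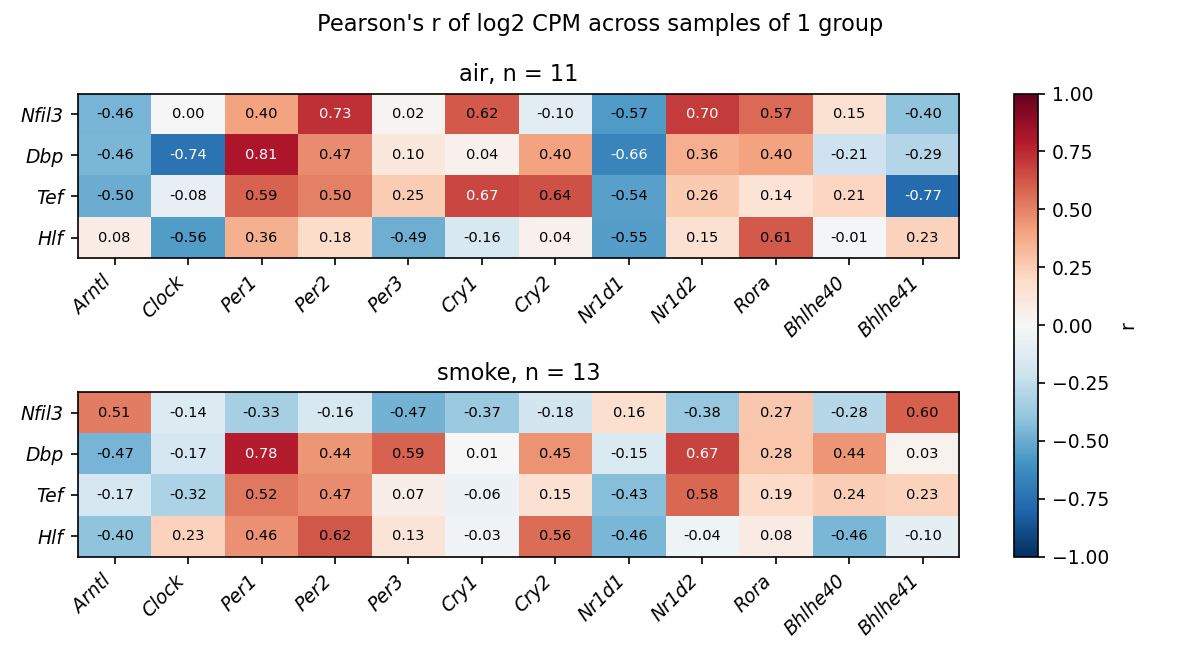
Pearson's r of log2 CPM (colour and printed value) between each of the 4 genes (rows) and 12 of the 13 tested clock loop genes (columns) across 11 air samples (top) and 13 smoke samples (bottom). Dbp with Per1 is the strongest cell, 0.81 in air and 0.78 in smoke; none of the 104 relations passed adjustment.

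Over all 24 samples, with each group centred on its own mean, the genes most like each member were sought among 9376 named genes by Pearson's r, which is given as a description without a test. Per1 came first for Dbp (r 0.77), then Nrip1, a nuclear receptor corepressor (0.73), and Usp2, a deubiquitinase under clock control in many tissues (0.70). The r within each group, from which the centred value is made, was 0.73 in air and 0.73 in smoke for Nrip1 and 0.67 in air and 0.81 in smoke for Usp2. The genes most opposite to Dbp were Ypel2 (−0.73), Mon2 (−0.70) and Setd1b (−0.70). Those most like Nfil3 were the kinesin Kif1c (0.72), Vmp1 (0.71), which takes part in autophagy, and Prorsd1 (0.71), and the most opposite were Eri1 (−0.69), Tirap (−0.67) and Tmem120a (−0.67). None of the nearest genes of Nfil3 belonged to the clock lists.

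Tef was most like Bckdhb (0.75), a subunit of the enzyme that breaks down branched-chain keto acids, Myom2 (0.75), which encodes a protein of the sarcomere's M band, and Anapc13 (0.73). It was most opposite to Tanc1 (−0.73), Eif4enif1 (−0.73) and the filamin Flnc (−0.71). Hlf was most like the splicing factor Tra2a (0.74), the immediate-early phosphatase Dusp1 (0.68) and Timp3 (0.68), and most opposite to Inip (−0.76), Gadd45b (−0.68) and Zfp383 (−0.64). The nearest genes of the 4 members did not repeat between members. None of these 24 genes was called between smoke and air by edgeR; the smallest adjusted p among them was 0.0637, for Anapc13.

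Among the clock loop genes, 3 of 13 tested were called between smoke and air, all higher (background 0.728% of tested genes higher and 1.19% lower), with a median log2 fold change of 0.14 against 0.01 over all tested genes. They were the E-box repressor Bhlhe40, which also represses Dbp in other systems, Per3 and Nr1d2. Bhlhe40 rose from 84.1 ± 12.2 to 114 ± 12.1 CPM (SD, n = 11 and 13) (log2 fold change 0.44 with SE 0.072, adjusted p = 0.00105 by edgeR). Its groups did not overlap (60.4 to 98.7 CPM in air, 103 to 149 CPM in smoke), and 0610040F04Rik overlaps it on the opposite strand. Its relative Bhlhe41 did not pass at 0.37 (SE 0.14, edgeR adjusted p = 0.155), nor did the repressor Cry1 at −0.35 (SE 0.14, edgeR adjusted p = 0.205).

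The activator Arntl, with 6.37 ± 4.10 CPM under air and 4.68 ± 2.73 CPM in smoke, did not pass either (log2 fold change −0.47, SE 0.30, edgeR adjusted p = 0.480), and its partner Clock was at −0.06 (SE 0.10, edgeR adjusted p = 0.842). Arntl had at most 65 reads in a sample. Npas2, Rorb and Ciart were under the expression filter, with at most 10 reads in a sample. The log2 fold changes of the 13 tested loop genes ran from −0.47 to 0.58.

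**Figure D4:**
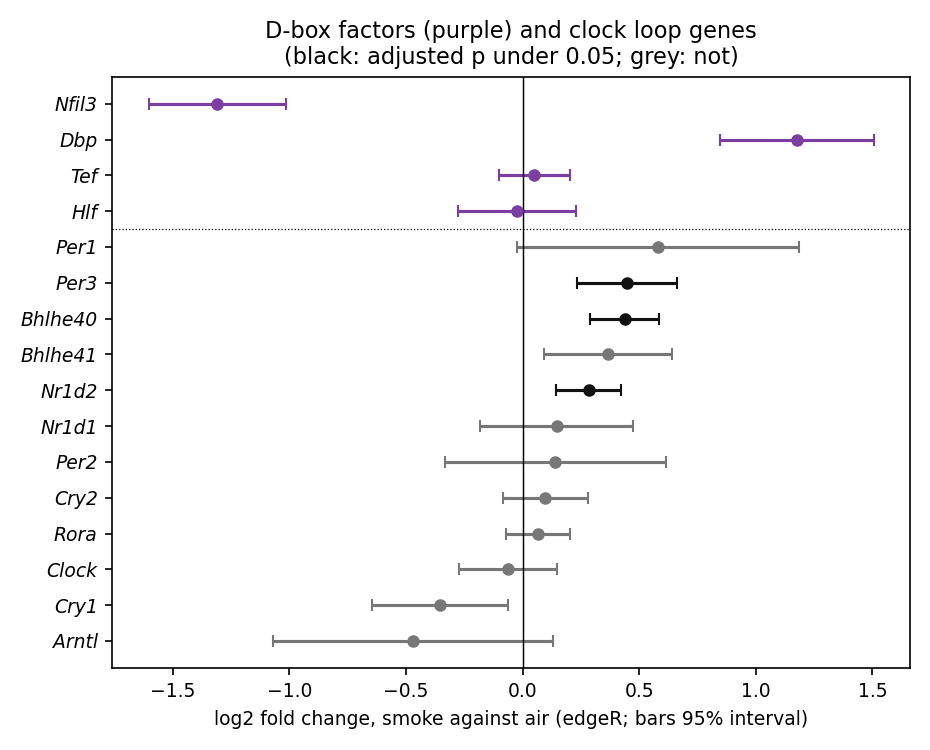
Log2 fold change of smoke against air (horizontal axis, edgeR, bars are 95% intervals) for the 4 D-box factors (purple, no p-value given) and 12 of the 13 tested clock loop genes (black, called; grey, not called). Nfil3 and Dbp, which were chosen for this difference, lie at −1.31 and 1.18, Tef and Hlf at 0.05 and −0.02, and the loop genes between −0.47 and 0.58.

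Of the 8 clock genes with described D-boxes 7 were tested, and 2 of them, Per3 and Nr1d2, were called, both higher (background 0.728%), with a median of 0.15 against 0.01 over all tested genes. This list shares all its members with the clock loop list. Per3, the gene whose window holds 2 D-box matches, rose from 44.3 ± 9.54 to 60.1 ± 12.4 CPM (SD, n = 11 and 13) (log2 fold change 0.45 with SE 0.11, adjusted p = 0.0172 by edgeR); Camta1 overlaps it on the same strand, so its counts are uncertain. Nr1d2 rose from 86.7 ± 9.62 to 105 ± 11.995 CPM (log2 fold change 0.28 with SE 0.069, adjusted p = 0.0216 by edgeR).

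Per1, the other gene with a D-box match, did not pass, with 15.1 ± 13.6 CPM under air and 22.7 ± 10.9 CPM in smoke (log2 fold change 0.58, SE 0.30, edgeR adjusted p = 0.346). Air replicate 5 decided this: without it the log2 fold change was 0.99 (edgeR adjusted p = 0.0418, range over the samples left out in turn 0.0418 to 0.501). Rora did not pass, at 0.07 (SE 0.067, edgeR adjusted p = 0.705).

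Metabolic genes that depend on PAR bZIP factors in liver, kidney or brain gave no call. Of 10 listed, 4 passed the expression filter and 0 were called by edgeR, 0 at an unadjusted p under 0.05, and 0 by DESeq2 or limma. With 1.92% of all tested genes called, 0 of 4 does not set the list apart. Ppara, the fatty acid receptor, was at −0.20 (SE 0.17, edgeR adjusted p = 0.641), Pdxk, which makes pyridoxal phosphate, at −0.19 (SE 0.15, edgeR adjusted p = 0.581), and the P450 reductase Por at −0.11 (SE 0.13, edgeR adjusted p = 0.745). The remaining tested gene, Alas1, had the other sign, at 0.09 (SE 0.14, edgeR adjusted p = 0.827). The other 6, among them Cyp7a1 and Nr1i3, had at most 3 reads in a sample, and Cyp2a5 and Cyp4a10 had 0 reads in all 24.

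Other clock output genes gave no call either: of 10 listed 8 were tested and 0 were called by edgeR, 0 at an unadjusted p under 0.05, and 0 by DESeq2 or limma. Against the same 1.92%, 0 of 8 is near the background. Coq10b was at 0.29 (SE 0.17, edgeR adjusted p = 0.414) and the glucocorticoid-induced Tsc22d3 at −0.14 (SE 0.078, edgeR adjusted p = 0.421). Usp2, among the genes most like Dbp from sample to sample, had 116.002 ± 31.7 CPM in air and 123.5 ± 19.8 CPM with smoke (log2 fold change 0.09, SE 0.11, edgeR adjusted p = 0.753).

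The C/EBP factors are bZIP proteins, and those other than Ddit3 prefer sites that resemble the D-box. Of 6 listed 5 were tested and 1 was called, Ddit3, the stress-induced factor CHOP, which fell (background 1.19% lower). It went from 52.5 ± 9.86 to 36.9 ± 7.12 CPM (SD, n = 11 and 13) (log2 fold change −0.51 with SE 0.10, adjusted p = 0.00538 by edgeR), and Mars overlaps it on the opposite strand. Cebpb was at −0.20 (SE 0.18, edgeR adjusted p = 0.655), Cebpd at 0.22 (SE 0.22, edgeR adjusted p = 0.700) and Cebpg at 0.04 (SE 0.13, edgeR adjusted p = 0.921). The family's median was −0.00 on the log2 scale.

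Markers of other cell types moved with exposure in part. Of the 5 blood genes 3 were called lower (background 1.19%), and their sum ran from 486 to 1444 CPM in air and from 369 to 883 CPM in smoke. Of the 5 Schwann cell genes 3 were called higher (background 0.728%), with sums of 118 to 274 CPM in air and 176 to 852 CPM in smoke. None of the tested adipocyte, endothelial, fibroblast or leukocyte genes was called. Leukocytes are a known site of Nfil3 expression, and the 7 leukocyte markers summed to 55.8 to 100.1 CPM in air and 57.7 to 96.5 CPM in smoke. Most of that sum was the macrophage and neutrophil gene Lyz2 (46.6 to 79.96 CPM in air, 48.8 to 80.9 CPM in smoke), and 2 of the 7 passed the expression filter. Their T cell marker Cd3e had 2 reads in all 24 libraries together.

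The part of blood and Schwann cell RNA in the level of Nfil3 and Dbp was not tested. Within groups, 72 relations of members with depth, RNA composition and summed markers were computed, and 7 had an unadjusted permutation p under 0.05 by r. The largest r of Nfil3 in air was −0.69, with adipocyte markers (permutation p = 0.00814, adjusted p = 0.293, rho −0.76), and −0.64 without 2 samples. In smoke it was 0.65, with the mitochondrial share of reads (permutation p = 0.0161, adjusted p = 0.343, rho 0.67), and 0.46 without 2 samples. Nfil3 had r −0.20 with blood markers in air (permutation p = 0.556, adjusted p = 0.903; rho −0.17, permutation p = 0.613) and 0.36 in smoke (permutation p = 0.225, adjusted p = 0.764; rho 0.31, permutation p = 0.298), the latter −0.03 without 2 samples. Dbp had r 0.49 with them in air (permutation p = 0.125, adjusted p = 0.553; rho 0.62, permutation p = 0.0476, adjusted p = 0.469; r 0.19 without 2 samples) and −0.61 in smoke (permutation p = 0.0269, adjusted p = 0.343; rho −0.51, permutation p = 0.0809), the latter −0.23 without 2 samples. With Schwann markers in air, r was 0.19 for Nfil3 (permutation p = 0.616, adjusted p = 0.903; rho 0.03, permutation p = 0.945) and −0.53 for Dbp (permutation p = 0.0957, adjusted p = 0.530; rho −0.50, permutation p = 0.123). In smoke it was −0.27 for Nfil3 (permutation p = 0.378, adjusted p = 0.787; rho −0.31, permutation p = 0.298) and 0.12 for Dbp (permutation p = 0.710, adjusted p = 0.903; rho 0.05, permutation p = 0.877). Of the 72 relations 1 passed by r, that of Tef with endothelial markers in air, at −0.83 (n = 11, permutation p = 0.00026, adjusted p = 0.0187; rho −0.76, permutation p = 0.00844, adjusted p = 0.303), and −0.71 without 2 samples. In smoke it was −0.07 (n = 13, permutation p = 0.806, adjusted p = 0.903; rho 0.02, permutation p = 0.949).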

How the data were processed

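The deposited values are unnormalized read counts per gene, by Ensembl ID, for 24 plantaris samples prepared with the QuantSeq 3′ forward kit per the labels' protocols. STAR, DESeq2 and the build mm9 are named, per the submitters' processing notes, without their role; the counting tool, annotation, strand use and use of molecular identifiers are not given in the sources used here, so counting intervals and floors cover counting error only. Symbols and coordinates came from GENCODE M21 (GRCm38), which held 99.1% of the IDs; no coordinates are in the deposited table.

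Groups and replicate numbers came from sample titles. Genes were kept by filterByExpr (minimum count 10, 10159 genes), scaled by TMM and tested by edgeR 4.0.16 (R 4.3.3) quasi-likelihood F-tests over all 24 samples without covariates, with Benjamini-Hochberg adjustment over all tested genes. The SE is the size of the log2 fold change divided by the root of F. Log2 CPM used a prior count of 2. Counting error on the log2 scale was taken from the Poisson variance of the reads. The fit was tested on simulated data. In all 133 within-group sample pairs the chi-square divided by the number of genes was at least 2.51, so no libraries were merged. Alternatives were RLE scaling, DESeq2 1.42.0, limma 3.58.1 (voom), no filter, the replicate number as a block, a prior count of 0.5, thinned counts and leaving out each sample. The prior count of 0.5 and the thinned counts were used for the correlations only.

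The members and gene lists were chosen with earlier results of these data known. Genes named were the 4 members, of each list the called genes and up to 3 tested genes with the next smallest p-values, and per member the 3 genes most like and the 3 most opposite, without predicted genes. Some genes that this rule names are not reported here. Other genes named were chosen after their values were seen.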

Additional observations from a re-analysis of the deposited data

How the results depend on the processing

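Against 195 genes called (74 higher, 121 lower), DESeq2 called 323 (121 higher, 202 lower); the cause was not tested. Other scalings, filters and models gave 138 to 201. Leaving out each sample gave 141 to 254 genes, 47 to 103 of them higher and 92 to 163 lower, the 47 without air replicate 3. The log2 fold changes of the 4 members moved by less than the SD between samples under every alternative in which they were refitted. The fold changes were not refitted on thinned counts. Nfil3 stayed between −1.36 and −1.24, Dbp between 1.11 and 1.28, Tef between 0.01 and 0.08, and Hlf between −0.08 and 0.06 with a change of sign.

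Replicate numbers are shared by the groups and did not pair the samples: the mean r of their deviations was −0.0059 over 11 same-numbered pairs, and 4 of the 11 exceeded 0.1. A replicate block was fitted on 22 samples, because smoke replicates 12 and 13 share no number with air and were dropped. It left 138 called genes (53 up, 85 down). Of the clock genes with described D-boxes it left 1 in place of 2, and of the clock loop genes 2 in place of 3. Nr1d2 was lost from both lists (log2 fold change 0.27, edgeR adjusted p = 0.0911). The block and the smaller number of samples cannot be told apart here. Under the block the log2 fold change of Nfil3 was −1.24, of Dbp 1.15, of Tef 0.04 and of Hlf 2.0e-04.

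No relation among members, or with clock loop genes, passed adjustment under RLE scaling, a prior count of 0.5 or thinned counts, and no member pair did when a sample was left out. The r of Tef with Hlf in smoke changed sign with RLE scaling (0.0049). When single samples were left out, r ran from −0.0608 to 0.279 for Dbp with Hlf in smoke, −0.476 to 0.0928 for Nfil3 with Dbp in air, −0.44 to 0.26 for Nfil3 with Hlf in air, −0.190 to 0.0229 for Nfil3 with Hlf in smoke, −0.21 to 0.29 for Nfil3 with Tef in smoke, −0.47 to 0.31 for Tef with Hlf in air and −0.127 to 0.0553 for Tef with Hlf in smoke, and the log2 fold change of Cebpg from −0.0357 to 0.09999. Counting error made up 58.1% of the variance of Nfil3 in smoke and 62.3% of that of Hlf in air.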
